A study of Mus musculus with 32 samples.

Results

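The protein part of the cytosolic ribosome was followed at the mRNA level in the livers of Gclc WT and Gclc KO mice. Members were chosen by name and by a minimum level. They are the genes whose symbol is Rpl or Rps with a number and an optional a or x, together with Rplp0, Rplp1, Rplp2 and Rpsa, kept where their level averaged 1 TPM or more in the 8 livers (TPM is a level scaled to transcript length and to a fixed total per library, a unit inferred here from the values). Of 20821 symbols in the table, 76 match the pattern and 75 reach that level, 45 of the large (60S) and 30 of the small (40S) subunit. The gene left out is Rpl26, listed at 0 in all 32 libraries.

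All animals were adult mice homozygous for a floxed Gclc gene, whose product catalyses the first step of glutathione (GSH) synthesis. The 4 Gclc KO mice also carried the tamoxifen-inducible recombinase CreERT2 at the Rosa26 locus, and the 4 Gclc WT mice did not. Rosa26 is active in nearly all tissues, so the deletion is not limited to the liver. Per the labels both genotypes received tamoxifen (intraperitoneal, 150 mg/kg, 5 days), and livers were taken after 14 days. Each mouse was measured in 4 libraries, which were averaged. The labels name no age, strain or sex. In bulk liver, fewer cells of a type and less RNA per cell cannot be told apart, and TPM give shares of the measured mRNA, not amounts per cell.

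A ribosome translates mRNA into protein. Its small subunit reads the codons, and its large subunit joins the amino acids and releases the chain through a tunnel. Each cytosolic ribosomal protein is, with few exceptions, present once per ribosome, and cells make these proteins in step. Mammalian ribosomal protein mRNAs are among the most abundant of the cell. Their first bases form a run of C and U, the terminal oligopyrimidine (TOP) tract, through which the kinase mTOR and the protein LARP1 control their translation and stability. In liver, a main site of plasma protein synthesis, they are commonly used as reference genes.

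The genotype labels were checked first. Gclc was at 82.3, 114.1, 77.8 and 138.4 TPM in the 4 Gclc WT livers, numbered 1 to 4 as in the labels, against 26.9, 16.1, 18.6 and 26.8 TPM in the 4 Gclc KO livers (limma adjusted p = 0.000612). Xist, expressed from the X chromosome of females, exceeded 20 TPM in 3 mice only, Gclc WT 3 and the Gclc KO mice 2 and 3. Hepatocyte genes dominated all livers, while 10 of 12 lymphocyte markers and 6 of 8 cycling-cell markers did not reach a mean of 1 TPM. The summed level of the 12 Kupffer cell markers was 329 to 876 TPM in WT livers against 905 to 1502 TPM in KO livers, with 6 of the 12 higher and 0 lower. None of these 12 was under 1 TPM on average. The 6 measured erythroid markers summed to 933.5 to 3748 TPM against 325 to 1297 TPM, most of it Hba-a1, and 2 were called lower (Hba-a1 and Alas2) and 1 higher (Tfrc). Of 7 stellate cell markers 0 were called higher and 3 lower. Of 9 measured hepatocyte markers 1 was called higher and 2 lower, and of 8 endothelial markers 1 and 1. Among 8 measured monocyte and neutrophil markers 1 was called higher and 0 lower, and among 4 cholangiocyte markers 1 and 0. No measured lymphocyte or cycling-cell marker was called. Over all genes tested 12.8% were called higher and 8.61% lower. Of 11 genes listed as signs of RNA quality 3 were measured, of which Neat1 was called higher and Malat1 lower. The part of these cells and of RNA quality in the results below was not tested.

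Ribosomal protein mRNAs were higher in Gclc KO livers. Their summed level was 27586, 31150, 27752 and 33482 TPM in the Gclc WT mice, and 41353, 38037, 37995 and 40498 TPM in the Gclc KO mice. This was 2.76% to 3.35% of all TPM in WT livers, against 3.80% to 4.14% in KO livers, and the genotypes did not overlap. The mean rose from 29993 ± 2847 to 39471 ± 1716 TPM (SD, n = 4 each), a ratio of 1.32. Within batch 1 the 16 libraries spanned 27428 to 33582 TPM (Gclc WT) against 37918 to 41421 TPM (Gclc KO), and within batch 2 they spanned 27552 to 33584 and 37799 to 41550 TPM. Batch is the labels' word, which they do not explain.

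Of the 75 genes, 39 were called higher in Gclc KO livers and 0 lower, where a call is a Benjamini-Hochberg adjusted p under 0.05 over all 11284 genes at or over 1 TPM in limma's test on log2(TPM + 1). Over all genes tested, 12.8% were called higher and 8.61% lower. At an unadjusted p under 0.05, 55 members were higher and 0 lower, beside 2541 higher and 1558 lower of the 11284 genes tested. All Gclc KO mice exceeded all Gclc WT mice for 56 of 75 members, against 14.5% of all genes. The fitted difference was above 0 for 71 members, beside 6762 of the 11284 genes tested. The median was 0.40 on the log2 scale, beside 0.09 over all genes tested. In the large subunit 20 of 45 genes were called higher (median 0.38), and in the small subunit 19 of 30 (median 0.43). The count of 39 fell to 23 when the mouse numbers of the labels were used as a block and to 20 when the Mup genes were left out of the total.

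**Figure D1:**
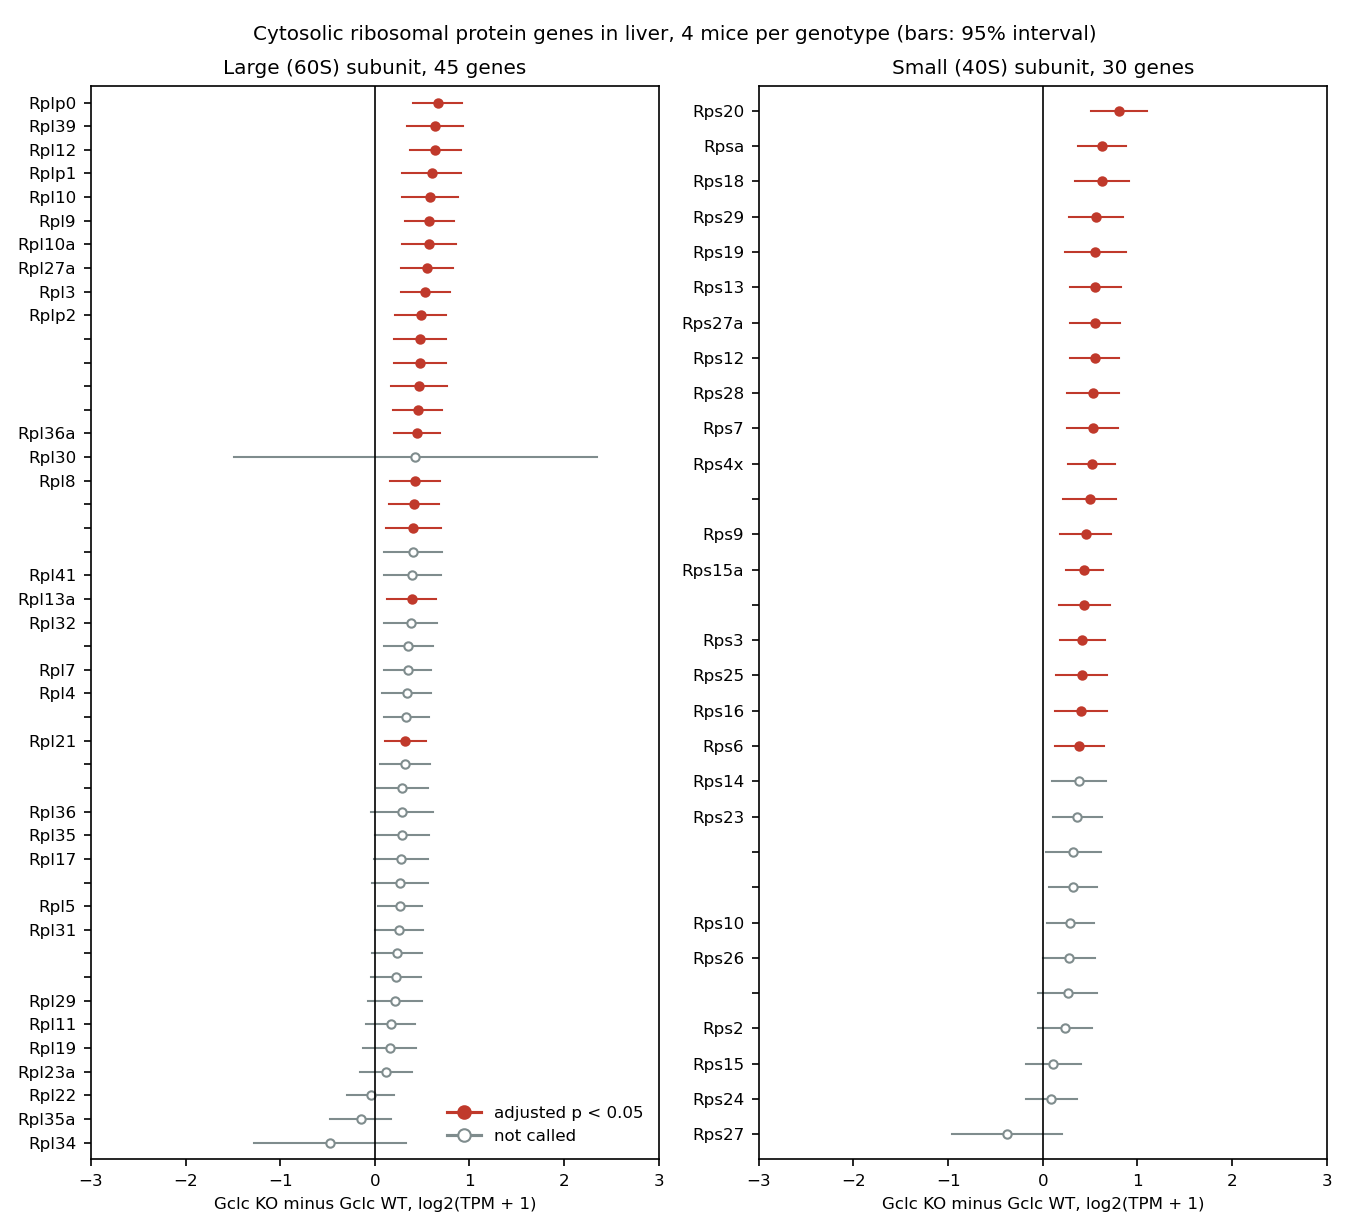
Difference between Gclc KO and Gclc WT livers for each of the 75 ribosomal protein genes, on the log2(TPM + 1) scale (points, fitted difference; bars, 95% interval; filled red, called higher), with names for the genes described in the text. Of 75 points 71 lie right of 0, 39 are called, and the wide bars of Rpl30, Rpl34 and Rps27 belong to genes listed at under 10 TPM.

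The spread among mice was small beside this difference for most members. The median SD of a member was 0.15 among Gclc WT mice and 0.08 among Gclc KO mice on the log2 scale. Among the 4 libraries of a mouse it was 0.05 to 0.08. Members moved together among the Gclc WT mice. Of the 75 members, 36 had their lowest value in Gclc WT 1 and 35 in Gclc WT 3, and 0 in Gclc WT 4, whose members lay a median of 0.04 below their mean over all mice. Gclc KO 1 was above that mean for all 75 members. The median deviation of members from that mean was −0.31, −0.13, −0.32 and −0.04 in Gclc WT 1 to 4. Over all genes tested it was −0.12, −0.03, 0.06 and −0.07 in these mice. In Gclc KO 1 it was 0.27 for members and 0.04 over all genes tested.

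Counts by region of the ribosome follow. They rest on few genes each, and differences between regions were not tested. Over whole subunits, 20 of 45 genes of the large and 19 of 30 of the small were called higher. The proteins of the P stalk, the flexible arm of the large subunit that recruits elongation factors, rose as a complete set of 4 genes. Rplp0, its base, was at 445, 474, 443 and 482 TPM in the 4 Gclc WT mice, against 744, 647, 780.5 and 755 TPM in the 4 Gclc KO mice. All 4 KO values were well above all 4 WT values, and the rise was 1.58-fold (log2 0.66, SE 0.12, adjusted p = 0.00512). Rpl12, which sits beside the base of the stalk, was at 436, 499, 412 and 494 TPM against 696, 772, 675 and 723 TPM (1.56-fold, adjusted p = 0.00682). The acidic stalk proteins Rplp1 and Rplp2 rose by 0.60 and 0.49 on the log2 scale. Rplp1 had the wider spread of the pair in Gclc KO livers, 1091 ± 136 TPM against 412 ± 30.4 TPM.

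Proteins next to the peptidyl transferase centre, where peptide bonds form, were called higher in 4 of 4 cases. Rpl10, which joins the large subunit late in its assembly, was at 1012, 973, 951.5 and 1132 TPM in Gclc WT mice. In Gclc KO mice it was at 1688, 1402, 1415 and 1602 TPM (log2 0.58, SE 0.13, adjusted p = 0.0150). It had the highest mean level of all members, 1272 TPM. Rpl3, Rpl8 and Rpl36a rose by 0.53, 0.42 and 0.45 on the log2 scale. Without Mup genes in the total 2 of these 4 genes were called, and with trimmed-mean or median-of-ratios scaling 3.

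Around the peptide exit tunnel 1 of 7 measured proteins was called higher. This was Rpl39, a very small protein inside the tunnel, at 268, 227, 233 and 298 TPM against 436, 406, 346 and 409.7 TPM without overlap (1.56-fold, adjusted p = 0.0103). Rpl4, which with Rpl17 lines the narrow part of the tunnel, had a difference of 0.34 (95% interval 0.08 to 0.59) and Rpl17 of 0.28 (−0.01 to 0.56), neither called. At the tunnel's mouth, Rpl35, Rpl31, Rpl19 and Rpl23a, the last of which receives the signal recognition particle, had differences of 0.29, 0.25, 0.16 and 0.12. Rpl5 and Rpl11, which carry the 5S rRNA into the large subunit and bind the p53 regulator Mdm2 when free, were not called. Their differences were 0.26 (0.03 to 0.50) and 0.17 (−0.09 to 0.43), and Rpl5 alone had an unadjusted p under 0.05.

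On the small subunit, 6 of 8 proteins of the head and the decoding centre were called higher, beside 19 of all 30 genes of that subunit. Rps20, a protein of the head, had the largest rise of all members. It was at 331.5, 309, 293.5 and 388 TPM in WT livers, against 639, 541, 519.6 and 607 TPM in KO livers, so that the lowest Gclc KO mouse lay well above the highest Gclc WT mouse (1.75-fold, log2 0.80, SE 0.13, adjusted p = 0.00427). Rps18, which contacts the large subunit from the head, rose from 713 ± 82.2 to 1099 ± 41.3 TPM (n = 4 each, adjusted p = 0.00936). Rps19, Rps29, Rps25 and Rps16 rose by 0.56, 0.56, 0.41 and 0.41. Rps23, a protein of the decoding centre, missed the threshold (0.37, adjusted p = 0.0520), and Rps15 had a difference of 0.11 (−0.18 to 0.40). Only 3 of the 8 were called with trimmed-mean scaling, with median of ratios or without Mup genes in the total, and Rps16 and Rps25 were called in 12 and 14 of 29 alternatives.

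Of 3 proteins at the entry of the mRNA channel 1 was called, and of 5 at its exit 3, beside 19 of 30 over the small subunit. At the entry, Rps3, which lines the channel there, rose by 0.42, while Rps10 and Rps2 had differences of 0.29 and 0.23. At the exit, Rpsa, the ribosomal form of a laminin-binding protein, was at 306, 348.5, 321.5 and 367 TPM against 541, 479, 518 and 541 TPM (1.55-fold, adjusted p = 0.00570). Rps28 rose by 0.54, and Rps14 and Rps26 had differences of 0.38 and 0.27 without passing the test. The counts at the exit and at the entry were 2 and 0 without Mup genes in the total. For all 5 genes of the exit each Gclc KO mouse exceeded each Gclc WT mouse, which held for 24 of the 30 small subunit genes. Rps6, the substrate of the S6 kinases downstream of mTOR, rose from 424 ± 43.8 to 552.5 ± 12.4 TPM (n = 4 each, log2 0.39, adjusted p = 0.0421). This call was made in 11 of 29 alternatives. It was lost with trimmed-mean or median-of-ratios scaling, without Mup genes in the total, and when any of the 8 mice was left out.

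Several members did not follow the others. Rpl22, a protein that mouse cells can replace by its paralog Rpl22l1, was at 71.0, 81.6, 74.0 and 87.9 TPM in WT livers, against 85.0, 69.5, 73.0 and 77.5 TPM in KO livers. Its difference of −0.04 (−0.29 to 0.21) was the closest to 0 of all members. Rpl22l1 was at 83, 91.9, 51.6 and 78.0 TPM against 110.1, 128, 103 and 150.3 TPM, without overlap (log2 0.70, SE 0.19, adjusted p = 0.0302). With trimmed-mean or median-of-ratios scaling, or without Mup genes in the total, 0 of 5 measured paralogs, Rpl22l1 included, were called higher. Without the 50 most abundant genes in the total 1 of the 5 was called. Rpl35a was 498.5 ± 80.5 TPM against 446 ± 37.3 TPM (n = 4 each, −0.15, −0.48 to 0.17), and Rps24 differed by 0.09 (−0.18 to 0.36). Rpl35a, Rps24, Rpl5 and Rpl11 are among the genes whose loss causes Diamond-Blackfan anaemia in humans. Of the 21 measured genes of that list 8 were called higher, with a median of 0.29, and 6 without Mup genes in the total. All 4 members on the X chromosome (Rpl10, Rpl36a, Rpl39 and Rps4x) were called higher (3 without Mup genes in the total), with a median of 0.55, and 2 of 4 Gclc KO against 1 of 4 Gclc WT mice carried Xist.

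Rps9, a protein of the small subunit's body, was the reference gene of the qPCR assays in the study, so its own level sets those ratios. It lies on chromosome 7, and the transcript in GENCODE M21 (GRCm38) has 5 exons. The primer pair of the study is shown because it defines what that reference measures, in lower case, 5′ to 3′.
Rps9 forward: cgtcacattagggtccgcaa
Rps9 reverse: gccataaggagaacggaggg
The forward primer falls in the coding sequence across exons 4 and 5 (chr7:3705909-3706659, with the intron) and the reverse primer in exon 5 (chr7:3706722-3706741), which gives a product of 102 bases. The forward primer also matches the pseudogene Gm5905 without a mismatch, while the pair together matches transcripts of 1 gene, Rps9.

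Rps9 was at 489, 547, 491 and 592 TPM in WT livers 1 to 4, and at 758.5, 684, 693 and 764 TPM in KO livers 1 to 4. All Gclc KO mice were above all Gclc WT mice, and the rise was 1.37-fold (log2 0.45, SE 0.12, 95% interval 0.18 to 0.72, adjusted p = 0.0270). This rise kept its direction under all 29 alternative settings (0.34 to 0.51) and lost its call under 8 of them. Among these, the adjusted p was 0.0511 with median-of-ratios scaling and 0.0745 when the Mup genes were left out of the total. Leaving out Gclc WT 1, Gclc WT 2, Gclc KO 1, Gclc KO 3 or Gclc KO 4 gave 0.0648, 0.0699, 0.0687, 0.0511 and 0.0640. Other ribosomal protein genes in common use as references were Rplp0 and Rps18, given above, Rpl13a (388, 459.9, 438 and 466 TPM against 598, 536, 604 and 559 TPM, log2 0.39, adjusted p = 0.0390), Rpl32 (0.38, adjusted p = 0.0566) and Rpl19 (0.16, adjusted p = 0.396). The call of Rpl13a was made in 13 of 29 alternatives. It was lost with trimmed-mean scaling (adjusted p = 0.0759), with median of ratios (0.0797), without Mup genes in the total (0.102) and when any mouse but Gclc KO 2 was left out (0.0545 to 0.0935). Rpl19 overlapped between genotypes, at 555, 704, 643 and 706 TPM against 748, 694, 733 and 721 TPM.

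**Figure D2:**
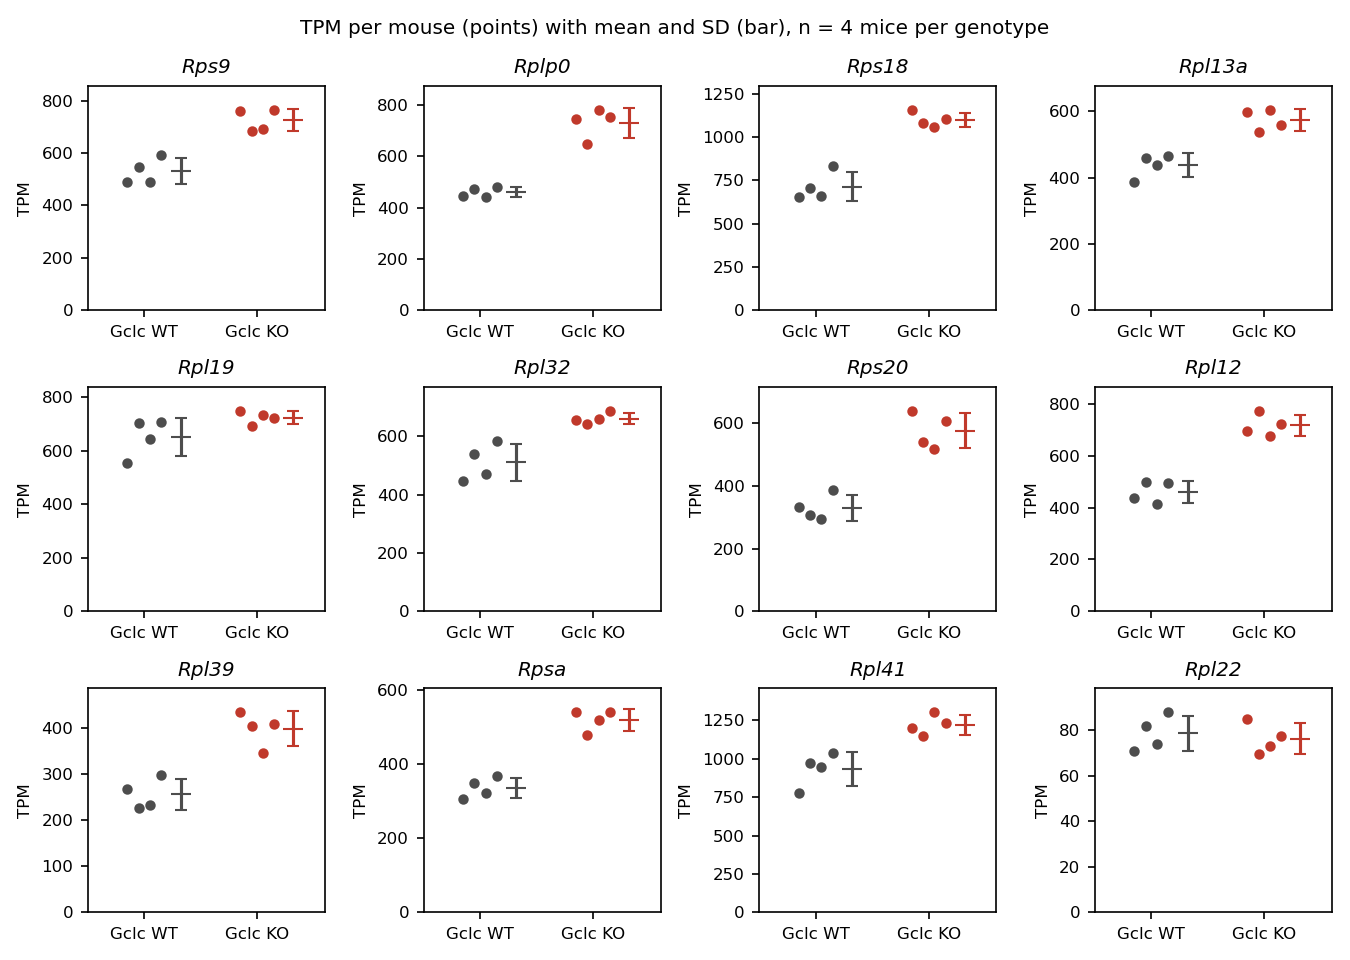
TPM of 12 ribosomal protein genes in each mouse (points) with the mean and SD (bars), 4 mice per genotype, all axes from 0. Rps9, Rplp0, Rps18, Rpl13a, Rpl32, Rps20, Rpl12, Rpl39, Rpsa and Rpl41 do not overlap between genotypes, while Rpl19 and Rpl22 do.

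Dividing by Rps9 lowers the log2 difference of any gene by 0.45. This was computed for 9 of the genes the study assayed by qPCR in liver. The genotypes were permuted exactly, in 70 arrangements of the mice (two-sided, smallest possible p = 0.0286). This was done on log2 TPM and on log2 of the ratio to Rps9. Fasn, fatty acid synthase, changed sign, from 0.36 (p = 0.400) to −0.10 (p = 0.743), and passed the threshold on neither scale. Gclm, the modifier subunit of the enzyme that Gclc belongs to, went from 1.00 (p = 0.0286) to 0.55 (p = 0.0571, adjusted over the 9 genes p = 0.0643). Gclc, Nqo1, Hmox1, Txnrd1, Scd1, Acaa1b and Fabp1 kept the smallest possible p on both scales (adjusted p = 0.0367 for the ratio to Rps9). The qPCR values themselves were not used here, and these ratios of TPM do not stand for the study's qPCR ratios.

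Reads of some members may be hard to tell from those of near-identical copies, so that the listed level of those members is uncertain. Only coding sequences were compared here, and no reads were examined. In GENCODE M21, 72 of the 75 members have at least 1 other gene that matches at least 80% of their coding sequence at 95% identity or more, most of them processed pseudogenes. For 13 members such a copy has a row of its own in the table, and for 5 members the copies hold more TPM than the member. These are Rps27, Rpl30, Rpl34, Rps15a and Rpl31, and the same holds for the unlisted Rpl26. The sources do not say how shared reads were assigned.

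The windows below show how little in the coding sequence tells a member from its copy. Each is from the coding strand, 5′ to 3′, in lower case, with the base that differs in capitals, and positions count from 1 at the A of the start codon.
Rpl30 (chr15:34442686-34442726): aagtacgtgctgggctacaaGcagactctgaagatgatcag
Gm12191 (copy on chromosome 11): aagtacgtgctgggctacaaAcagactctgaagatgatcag
Rpl34 (chr3:130729064-130729104): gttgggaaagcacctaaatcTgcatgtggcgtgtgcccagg
Rpl34-ps1 (copy on chromosome 6): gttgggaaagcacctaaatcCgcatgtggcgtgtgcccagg
Rpl26 (chr11:68902431-68903207, with an intron): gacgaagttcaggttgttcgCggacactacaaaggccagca
Gm15772 (copy on chromosome 5): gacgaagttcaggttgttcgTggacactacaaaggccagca
Rps15a (chr7:118115215-118115241): atggtgCgaatgaatgttctggcggat
Rps15a-ps6 (copy on chromosome 11): atggtgTgaatgaatgttctggcggat
Rps27 (chr3:90213227-90213267): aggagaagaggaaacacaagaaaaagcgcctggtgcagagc
Rps27rt (copy on chromosome 9): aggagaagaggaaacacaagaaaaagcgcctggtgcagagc
The Rpl30 window holds the single difference in 345 coding bases (G96A). Rpl34 and its copy differ at 2 of 351 bases (T132C and C318G), and Rpl26 and Gm15772 at 2 of 435 (C177T and T288C). Rps15a-ps6 differs at 5 of 390 bases, and its first difference, C7T, turns the third codon into the stop codon tga. Rps27 and Rps27rt, which is annotated as protein coding, are identical over all 252 coding bases.

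Where the copy held the TPM, the member's own row was low. Rps27 was at 1.55 to 3.36 TPM against 0.79 to 2.35 TPM in KO mice, the lowest mean of all members. Its copy Rps27rt was at 657, 709.8, 653 and 912 TPM against 989, 881, 989 and 1011 TPM (log2 0.41, adjusted p = 0.0698). Rpl30 was listed at 0 in 21 of 32 libraries, with mouse values of 0 to 9.71 TPM against 0 to 9.05 TPM. Gm12191 was at 354, 377.5, 372 and 406 TPM against 507, 490.4, 467 and 520.2 TPM without overlap (log2 0.40, adjusted p = 0.0290). Rpl34 was at 5.40 to 9.53 TPM against 2.50 to 10.4 TPM, while Rpl34-ps1 was at 281 ± 23.2 and 388.5 ± 20.6 TPM (n = 4 each, log2 0.47, adjusted p = 0.0170). Gm15772, the copy of Rpl26, was at 598 ± 59.9 and 721 ± 38.6 TPM (log2 0.27, adjusted p = 0.137).

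**Figure D3:**
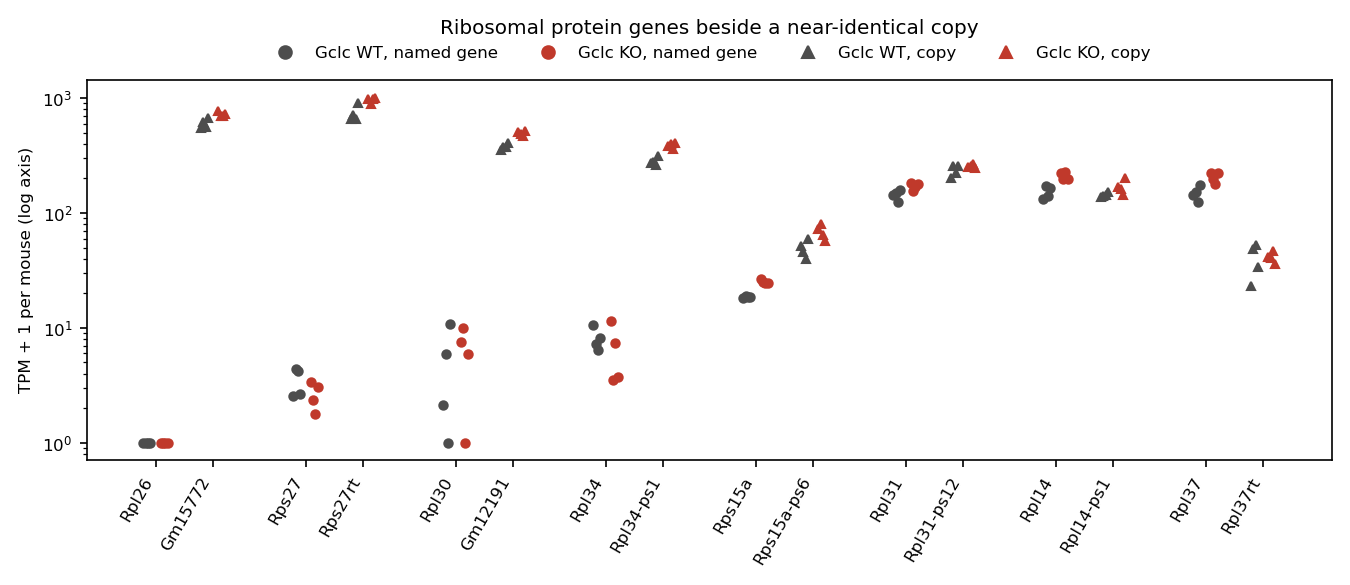
TPM + 1 per mouse on a log axis for 8 ribosomal protein genes (circles) and a near-identical copy of each (triangles). Rpl26 lies at 0 TPM beside 598 and 721 TPM on average for its copy Gm15772, and Rps27, Rpl30 and Rpl34 lie far under their copies.

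Copies were also added to their member, an alternative chosen after the data were seen. Summed with its copy, Rpl34 was 288 ± 23.5 TPM against 394 ± 18.8 TPM (n = 4 each, log2 0.45, adjusted p = 0.0189), where its own row had given −0.47 (adjusted p = 0.375). Rps27 with Rps27rt came to 0.41 (adjusted p = 0.0707) from −0.37, and Rpl30 with Gm12191 to 0.40 (adjusted p = 0.0311). Rpl31 with its copy was not called (0.18, adjusted p = 0.292). Rpl21, called on its own row (0.32, adjusted p = 0.0408), was not called with its copy added (0.28, adjusted p = 0.104). With copies summed, 40 of 76 genes were called higher, 38 of them among the 39 called before, and 74 differed by more than 0.

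The TOP tract can be looked for at annotated start sites. In RefSeq promoters (GRCm38.p6) 55 of 75 members had an entry, 73.3%, which is too few for a check over the members, so the counts describe the matched genes alone. A run of 8 or more letters C or T on the sense strand, within 15 bases before and 15 from the start site on, was present in 25 of 55 members and in 13.9% of 27025 genes. On the other strand such a run was present in 3 members and 15.3% of genes. Of the 29 matched members called higher 10 had a run, and of the 26 not called 15. A shorter run, of 5 or more letters and covering the start site itself, was present in 20 of the 55 members and 11.8% of genes. For a gene with several start sites the longest run was counted. The windows of 2 members that rose and 2 that did not pass the test, picked as examples after their values were seen, are shown in lower case, with the longest run in capitals.
Rps18 (chr17:33955651-33955680, − strand): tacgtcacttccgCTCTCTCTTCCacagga
Rplp2 (chr7:141447636-141447665, + strand): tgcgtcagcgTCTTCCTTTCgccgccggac
Rpl35a (chr16:33056467-33056496, + strand): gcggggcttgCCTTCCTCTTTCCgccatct
Rps24 (chr14:24490663-24490692, + strand): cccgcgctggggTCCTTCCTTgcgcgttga
All 4 runs cover the annotated start site shown. Rpl35a and Rps24 have further annotated start sites, where the longest run was 4 or 5 bases. A match is a description of these letters and names no control. Members with no entry included Rpl3, Rpl7, Rpl8, Rpl17, Rpl21, Rpl23a, Rpl29, Rpl30, Rpl32, Rpl36, Rplp1, Rps14, Rps20, Rps27a and Rps29.

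TPM are shares, and the major urinary protein (Mup) genes, very abundant in Gclc WT livers, entered the same total. Their weight in that total was measured by leaving them out. The summed Mup level was 139885, 86213, 16596 and 64525 TPM in the Gclc WT mice but 109 to 539 TPM in the Gclc KO mice. Left out of the total, they moved the median of all genes by −0.10, from 0.09 to −0.01. The ribosomal protein genes then had a median of 0.28 and 20 calls higher, with 69 of 75 above 0. Summed ribosomal protein TPM on that scale were 28239 to 35813 against 38018 to 41400, still without overlap.

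**Figure D4:**
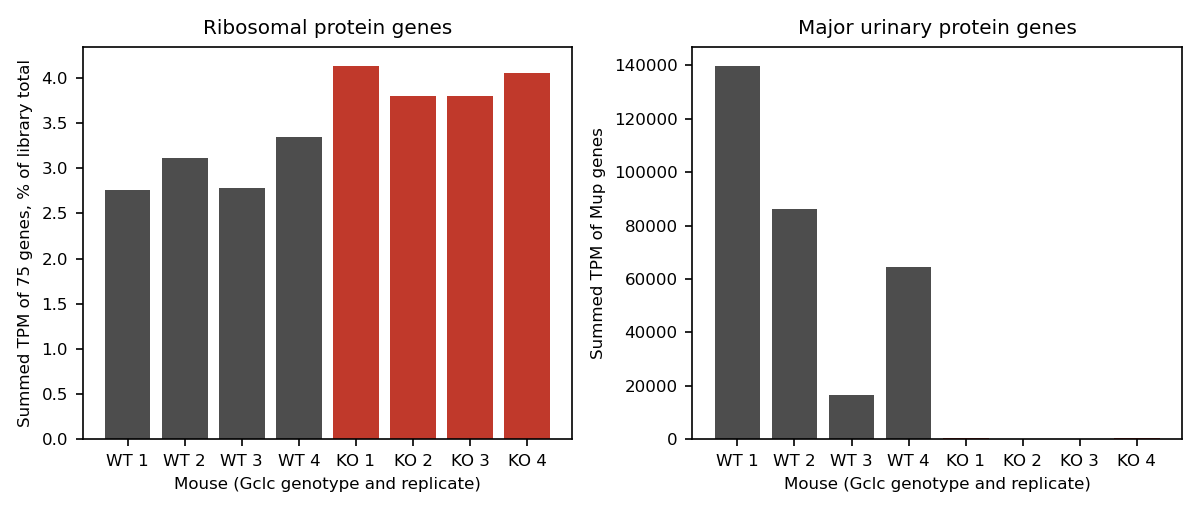
Summed TPM of the 75 ribosomal protein genes as a percentage of the library total (left) and summed TPM of the Mup genes (right) in each mouse. The share is 2.76% to 3.35% in WT livers, against 3.80% to 4.14% in KO livers, and the Mup sum is under 540 TPM in all Gclc KO mice.

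Over 5 scalings the median difference of ribosomal protein genes lay 0.297 to 0.315 above the median of all genes. A scaling divides all genes of a mouse by the same factor, so this gap can hardly change. Its small range is therefore no check of the result. Trimmed-mean scaling gave 26 calls higher, median of ratios 23, and the total without the 50 most abundant genes 51, each with 0 lower. The split of all calls moved with the scaling. As deposited 1439 genes were called higher and 972 lower, by the trimmed mean 1255 and 1406, by median of ratios 1242 and 1413, without the 50 most abundant genes 1803 and 1073, and without Mup genes 996 and 1400. The share of all genes called higher was 11.1%, 11.0%, 15.97% and 8.83% under these 4 scalings, in that order. The P stalk genes were called in 4 of 4 cases under all but the scaling without Mup genes, where 3 were called.

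**Figure D5:**
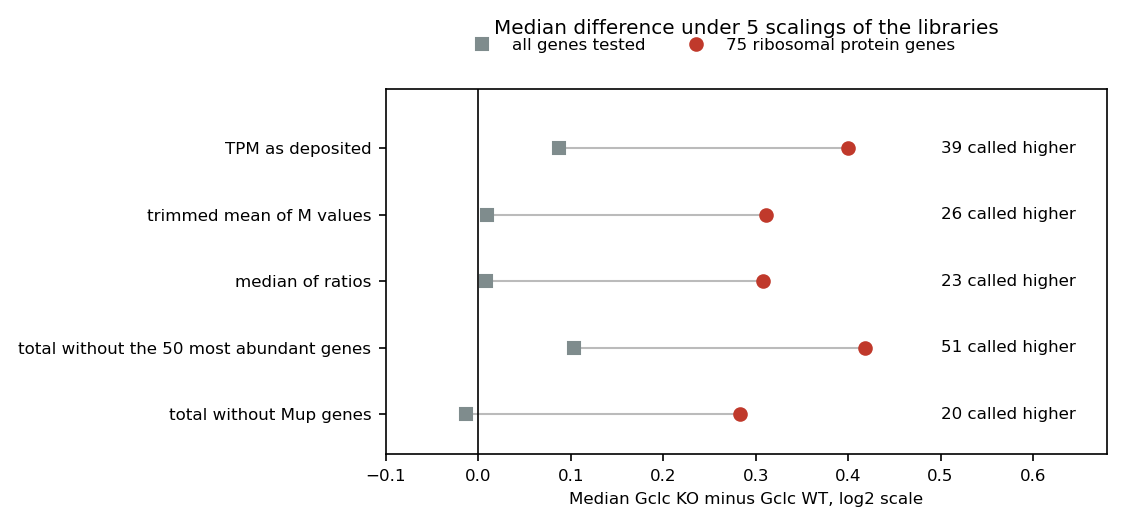
Median log2 difference between Gclc KO and Gclc WT livers for the 75 ribosomal protein genes (circles) and all genes tested (squares) under 5 scalings. The gap between the medians is 0.297 to 0.315 and can hardly change, because a scaling moves all genes of a mouse alike. The number of members called higher goes from 20 to 51.

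In all 29 alternatives 17 members kept their call: Rplp0, Rplp1, Rpl3, Rpl9, Rpl10a, Rpl12, Rpl27a, Rpl39, Rps4x, Rps7, Rps12, Rps13, Rps15a, Rps18, Rps20, Rps27a and Rpsa. A further 8 members were called in none: Rpl22, Rpl23a, Rpl29, Rpl31, Rpl35a, Rps15, Rps24 and Rps27. The call count was 39 with batch 1 alone and 32 with batch 2 alone, 50 with Xist as a covariate and 29 in the 5 mice without Xist. It ranged from 20 (without Gclc WT 2 or without Gclc KO 1) to 36 (without Gclc KO 2) when 1 mouse was left out. Without Gclc WT 1 it was 22, and without Gclc KO 4 it was 23.

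Of 5 other ribosomal protein genes, whose symbols do not match the pattern, 2 were called higher. With trimmed-mean or median-of-ratios scaling, or without Mup genes in the total, 1 of the 5 was called. Without the 50 most abundant genes in the total 4 were called. Gnb2l1, the older symbol of Rack1, a scaffold protein on the small subunit, was at 303, 313, 283 and 333 TPM against 517, 441, 434 and 463 TPM (log2 0.59, adjusted p = 0.00771). Rps3a1 rose by 0.40 (adjusted p = 0.0394). Fau, which encodes a ribosomal protein fused to a ubiquitin-like protein, had a difference of 0.37 (adjusted p = 0.0893). Of the paralogs at or over 1 TPM, Rpl22l1 rose, a call that depended on the scaling as given above. Rpl36al, Rpl7l1, Rps4l and Rps27l had differences of 0.09, 0.06, −0.17 and −0.19, none called, and Rpl36al and Rpl7l1 changed sign without Mup genes in the total.

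Genes that serve the ribosome were counted in the same test. Among translation elongation genes and other TOP mRNAs 4 of 18 were called higher (22.2%, beside the 12.8% of all genes) and 0 lower (median 0.21, beside 0.09 for all genes). With trimmed-mean or median-of-ratios scaling these counts were 4 and 1, and without the 50 most abundant genes in the total 6 and 0. Without Mup genes in the total they were 2 and 0 (median 0.10, beside −0.01). Among the 4 called as deposited was Eef2, which drives translocation, at 712 ± 71.5 and 1009 ± 128 TPM (n = 4 each, log2 0.50, adjusted p = 0.0338). Among initiation factors, taken by the symbol Eif (Eif6 and the Eif4ebp genes below included), 8 of 53 were called higher and 0 lower (15.1%, beside the 12.8% of all genes). With trimmed-mean scaling the initiation factor counts were 7 higher and 2 lower, and without Mup genes in the total 5 and 1. Of 51 measured ribosome assembly factors 8 were called higher and 0 lower (15.7%). This became 4 higher and 1 lower with trimmed-mean or median-of-ratios scaling and 3 and 1 without Mup genes in the total, shares below those of all genes under the same scalings. The largest rise among them was Eif6, which keeps a new large subunit from joining too early, at 38.3, 33.6, 37.8 and 40.2 TPM against 78.2, 99.0, 89.5 and 99.5 TPM (2.40-fold, adjusted p = 0.000338). At an unadjusted p under 0.05, 2 initiation factors, 1 elongation or TOP gene and 1 assembly factor were lower. Of 20 genes for RNA polymerase I and 5S rRNA supply 0 were called higher (2 at an unadjusted p under 0.05) and 1 lower. This was Gtf3a, the factor that starts 5S rRNA transcription (13.9 ± 2.00 and 7.60 ± 1.24 TPM, n = 4 each, log2 −0.79, adjusted p = 0.00533).

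Among 22 genes that control ribosomal protein production 3 were called higher (13.6%, near the 12.8% of all genes) and 1 lower, and without Mup genes in the total 2 and 2. Eif4ebp3 and Eif4ebp1, which block cap-dependent translation when mTOR is low, rose by 2.39 and 0.55 on the log2 scale. Mdm2 rose by 0.81, and Deptor, an mTOR inhibitor, fell by 0.81. The other 18 were not called. The mitochondrial ribosome, built from a separate set of nuclear genes, was counted beside them. Of 77 measured genes 0 were called higher and 11 lower (median −0.15), beside 12.8% and 8.61% of all genes. At an unadjusted p under 0.05, 2 were higher and 24 lower, beside 2541 and 1558 of the 11284 genes tested. Under the 4 other scalings 0 were higher and 14 to 21 were lower, while 1073 to 1413 of all genes tested were called lower. Subunits of the mitochondrial respiratory chain (symbols Nduf, Cox, Uqcr and Atp5), a list added after the data were seen and so given with no test, had a median of −0.43, with 5 of 81 above 0. Ribosomal protein mRNAs are short, so other genes were counted by length. Among 4200 other genes with a median annotated transcript under 1000 bases 511 were called higher (12.2%, median 0.08), and among 6627 longer ones 850 (12.8%, median 0.09).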

How the data were processed

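Liver RNA of 8 mice (4 per genotype) was purified with a PureLink kit and made into Kapa directional mRNA libraries. The labels list 4 libraries per mouse. They do not say whether these were prepared separately or are repeat sequencing. The authors deposited 1 table of normalised values per library and gene, named as normalised counts and read here as TPM. The unit was inferred from the values, whose library totals are fixed and which show no common step per read, so scaling to transcript length is not stated by a source. The libraries sum to 999315 to 999534, so TPM keep no depth and no counting interval could be given. The submitters' processing notes name bcl2fastq 2.2. For the aligner, quantifier and genome build, the sources used here give nothing. Of 20896 rows, 75 repeat a symbol with identical values and were dropped.

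The 4 libraries of a mouse were averaged as TPM. Genes averaging 1 TPM or more were tested on log2(TPM + 1), a scale that understates changes of low genes, with limma 3.58.1 in R 4.3.3 (mean-variance trend, two-sided, no covariates, Benjamini-Hochberg over all 11284 genes, threshold 0.05). The code was tested on simulated data. Copies were found with BLAST 2.17.0 in GENCODE M21. Whether the mice of a genotype came from separate litters is not given. P-values measure the spread between these mice.

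Members and gene lists were chosen with earlier results of these data known. Named genes were Rps9 and other qPCR references, the 8 largest called rises, the extremes of level, the smallest difference, members of the role lists, all genes outside the name pattern, paralogs, and up to 4 called genes per other list, of which few are printed. Some genes are not reported by name here. Alternatives covered pseudocount, filter, scaling, covariates, batches, runs, a replicate block, a mouse random effect and each mouse left out.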

Additional observations from a re-analysis of the deposited data

Results flagged for a closer look

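For 61 genes in each genotype, 3 groups of 4 mice had 1 mouse far from the other three. Chance flags about 1 in 20 groups, here about 6, so 3 are fewer than chance gives. Rps27rt, the near-identical copy of Rps27, was lowest in Gclc KO 2 at 881 TPM, beside 989, 989 and 1011 TPM in the other Gclc KO mice (gap to its neighbour over the whole range 0.832). Eif4ebp1 was lowest in the same mouse at 60.2 TPM, beside 91.8, 90.6 and 92.1 TPM (0.953). Fgb, a fibrinogen chain among the hepatocyte markers, was highest in Gclc WT 3 at 9867 TPM, beside 3409, 3536 and 4254 TPM (0.869).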

How the results depend on the processing

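The median difference of the 75 ribosomal protein genes stayed above 0 in all 29 alternatives, from 0.28 (total without Mup genes) to 0.45 (without Gclc WT 4), and 0 members were called lower in each. The count called higher was 39 and moved by more than 1.5 times in 4 alternatives beside those that leave out a mouse: 23 with median of ratios, 20 without Mup genes in the total, 23 with a replicate block and 64 with 32 libraries and the mouse as a random effect. The fit over 32 libraries used a single correlation among libraries of a mouse, 0.499, for all genes. The median SD of a member was 0.05 to 0.08 among libraries of a mouse, beside 0.15 among Gclc WT and 0.08 among Gclc KO mice. The cause of these changes in count was not tested. The 23, 20 and 23 genes were all among the 39, and of the 64 genes 38 were. When 1 mouse was left out, the count ranged from 20 to 36, with fewer samples in the fit. The ratio of summed TPM was 1.21 without Mup genes and 1.28 to 1.37 when 1 mouse was left out. Gclc kept its call in all alternatives.

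Signs turned for low or unmoved genes, none of them called in the main setting. Rpl7l1 was −0.023 with the trimmed mean of M values, −0.025 with median of ratios, −0.050 without Mup genes and −0.030 without Mup genes and with Xist as a covariate, and Rpl36al was −0.025 without Mup genes. In mice without Xist, Rps27 was 0.053, Rpl22 0.022 and Rps4l 0.17. Rps27 was 0.029 in batch 1, Rpl34 0.46 in batch 2 and Rpl30 −0.68 in run 2. With 1 mouse left out, Rpl30 ranged from −0.16 (without Gclc WT 3) to 1.16 and Rpl22 from −0.096 to 0.011 (without Gclc WT 4). With copies summed, Rps27 was 0.41 and Rpl34 0.45, the latter called.

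The mouse numbers 1 to 4 of the labels were tried as pairs. Deviations from the genotype means correlated at 0.06, −0.12, 0.34 and 0.26 across all genes for numbers 1 to 4, and only numbers 3 and 4 correlated best with their own number. Over the 75 members alone the correlations were 0.11, 0.66, 0.82 and 0.33. In the column headers the mice of a number carry close tags (WT-111 and KO-114, WT-124 and KO-122, WT-76 and KO-77, WT-82 and KO-83). The labels name no litter or day behind a number or tag. As all genes did not pair in each case, the block was kept as an alternative. With tags above or below 100 as a covariate, 32 members were called higher. Whether the numbers mark real pairs is not settled. With the replicate block 1341 genes were higher and 874 lower, beside 1439 and 972. Rps9 (adjusted p = 0.0689), Rpl13a, Rps3a1 and Eef2 were among the named genes not called with the block. Over all genes 700 were higher and 556 lower without Gclc WT 2, and 2065 and 1346 with 32 libraries. Depth is unknown, and genes listed under 10 TPM (Rps27, Rpl30, Rpl34) are the least certain.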
